A study of Mus musculus with 19 samples.

Results

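The 6 genes described here encode subunits of the NMDA receptor. They are Grin1, Grin2a, Grin2b, Grin2c, Grin2d and Grin3a, and they were taken by symbol from the 20436 genes of an RNA table and a ribosome profiling table of mouse hippocampal slices. All 6 passed the filter on low counts in both assays. Slices came from male wild-type mice aged 28 to 42 days, and slices of 6 mice were pooled in each replicate. They received 100 µM DHPG, an agonist of group 1 metabotropic glutamate receptors, for 5 min, or the artificial cerebrospinal fluid that served as vehicle (basal). Slices of both groups then received cycloheximide at 100 µg/ml, which stops elongating ribosomes. RNA-seq gave 4 basal libraries and 5 with DHPG. Ribosome-protected fragments (RPFs, the pieces of mRNA that a ribosome shields from nuclease) gave 5 libraries for each treatment, which makes 19 in all. Replicates 1 to 4 were paired in RNA and replicates 1 to 5 in RPF. RNA totals ran from 4870813 to 7793244 counts and RPF totals from 5692064 to 22092434. The slices held all hippocampal cell classes, and in such a mixture fewer cells of a type and less RNA per cell cannot be told apart.

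NMDA receptors are glutamate-gated cation channels that need a co-agonist, glycine or D-serine, and membrane depolarization to pass calcium. GluN1, the product of Grin1, is present in every NMDA receptor and binds the co-agonist. GluN2 subunits bind glutamate and set the kinetics and the partners of the channel. GluN2B is known for prominence early in forebrain development, with GluN2A rising later, whereas GluN2C is best known from cerebellum and GluN2D from interneurons and the early brain. GluN3A binds glycine and is known for receptors of low calcium permeability in the young brain.

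Every comparison here is between near relatives, so it matters whether a read can be placed on 1 gene. Over the counted coding sequences, windows of 26 bases (the shortest RPF the study selected) that also occurred in another gene were 0% in Grin1 and Grin3a, 0.206% in Grin2b, 0.468% in Grin2c and 0.334% in Grin2d. Grin2a stood apart, with 2124 of its 4310 windows (49.3%) found in another gene. Of these, 2119 lay in the processed pseudogene Gm7328 (mm10 chr8:56952829-56955053, plus strand), which copies the latter part of the Grin2a coding sequence and was in neither count table. The authors kept only uniquely mapped reads, so RPFs from these bases may be missing from the count of Grin2a. RNA reads may be missing as well, to a lesser share of the transcript. Of its windows of 50 bases, 2079 of 14585 (14.3%) occurred in another gene, 2076 of them in Gm7328. Gene-level counts do not show where reads fell, and the size of any loss was not tested.

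The genes also differ in length and base composition, which bears on levels per length. The Grin1 gene spans 25291181 to 25319187 on chromosome 2, and its transcript of 4276 bases has a coding sequence of 2880. Grin2a (chromosome 16, 9567898 to 9995560) and Grin2b (chromosome 6, 135713233 to 136173511) have long 3′ untranslated regions of 9929 and 18865 bases on transcripts of 14634 and 24060 bases. Grin2c (chromosome 11, 115249169 to 115267243) and Grin2d (chromosome 7, 45831883 to 45878378) have compact transcripts of 4895 and 5431 bases. Grin3a (chromosome 4, 49661611 to 49845744) has a transcript of 7491 bases. All 6 lie on the minus strand. Transcript GC content was 59.4% in Grin1, 62.1% in Grin2c and 65.0% in Grin2d, against 44.8% in Grin2a, 45.7% in Grin2b and 49.2% in Grin3a. The antisense gene Grin1os covers 30.6% of the Grin1 transcript on the opposite strand, but it was given only 0 to 2 counts in any RNA library and 0 in every RPF library.

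Under basal conditions, Grin1 was the most abundant subunit in both assays, and Grin2c and Grin2d were the least abundant in RPF. RNA is given as reads per kilobase of transcript, scaled to library size (RPKM), and RPF as the same per kilobase of counted coding sequence, with library sizes set by the TMM method of edgeR. Grin1 RNA was at 156, 201, 222 and 109 RPKM in basal replicates 1 to 4 (172 ± 50.5, SD, n = 4). Every one of these libraries lay above every library of the next gene, Grin2a, at 50.3, 54.3, 48.3 and 54.2 (51.8 ± 2.98). Grin2a was in turn above Grin2c and Grin2b in every library.

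Grin2c and Grin2b could not be ordered in RNA per base of these transcripts. Grin2c RNA was at 25.1, 32.2, 40.8 and 23.7 RPKM (30.4 ± 7.83), and Grin2b RNA at 25.8, 25.9, 23.7 and 27.96 (25.8 ± 1.75). Each was higher in 2 of the 4 libraries. Grin3a followed at 13.6, 16.6, 14.9 and 13.8 (14.7 ± 1.39), and Grin2d was lowest at 5.54, 8.27, 7.67 and 4.45 (6.48 ± 1.79), with no overlap between those 2 genes or with the genes above them. Grin1 RNA was higher than that of 97.3% of the 12475 genes with a length and a tested count, and Grin2d RNA than that of 39.5%.

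By these lengths, the order in RPF was different for the GluN2 genes. Grin1 RPF was at 396, 404, 419, 311 and 365 RPKM in basal replicates 1 to 5 (379 ± 42.8, SD, n = 5). Grin2b RPF was second at 100.4, 109, 109, 91.7 and 98.1 (101.6 ± 7.34), and Grin2a RPF came next at 68.5, 82.2, 84.6, 71.6 and 68.1 (75.01 ± 7.86). The lowest Grin2b library lay above the highest Grin2a library.

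Grin3a RPF was at 13.4, 13.7, 15.2, 12.5 and 11.9 RPKM (13.3 ± 1.28). Grin2c RPF was at 6.23, 4.93, 5.38, 5.55 and 6.15 (5.65 ± 0.547), and Grin2d RPF at 5.75, 5.23, 5.29, 5.37 and 5.96 (5.52 ± 0.318). The last 2 genes overlapped, so Grin2c, which had 4.70-fold more RNA per length than Grin2d, had no more RPF beyond the spread of the libraries. These levels rested on 147 to 434 RPF counts per basal library for Grin2c, against 7202 to 26009 for Grin1.

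Of the summed level of the 6 genes, Grin1 held 56.2% ± 6.74 in RNA (SD, n = 4) and 65.2% ± 1.698 in RPF (SD, n = 5). The order of Grin2a and Grin2b in RPF depended on the length used: per base that no other gene shares, an alternative chosen after the data were seen, Grin2a was at 149 ± 15.6 RPKM and Grin2b at 102 ± 7.40. That alternative left the counts whole, and so assumes that no counted read came from shared bases. The RNA levels of Grin2a and Grin2b depended on their untranslated regions. Per base of the shortest annotated transcript with the whole coding sequence, Grin2a RNA was at 172 ± 9.94 RPKM and overlapped Grin1. By that length Grin2b RNA was at 83.1 ± 5.63 RPKM and Grin2c RNA at 34.8 ± 8.96. Grin2b was then above Grin2c in all 4 libraries, without overlap. The shortest Grin2a transcript, of 4395 bases, is linked in GENCODE to RefSeq, the annotation whose coding sequences the authors used for RPFs. The Grin2a transcript of 14634 bases used for the main values has no such link. Which transcript ends the slices used was not measured in these tables.

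**Figure D1:**
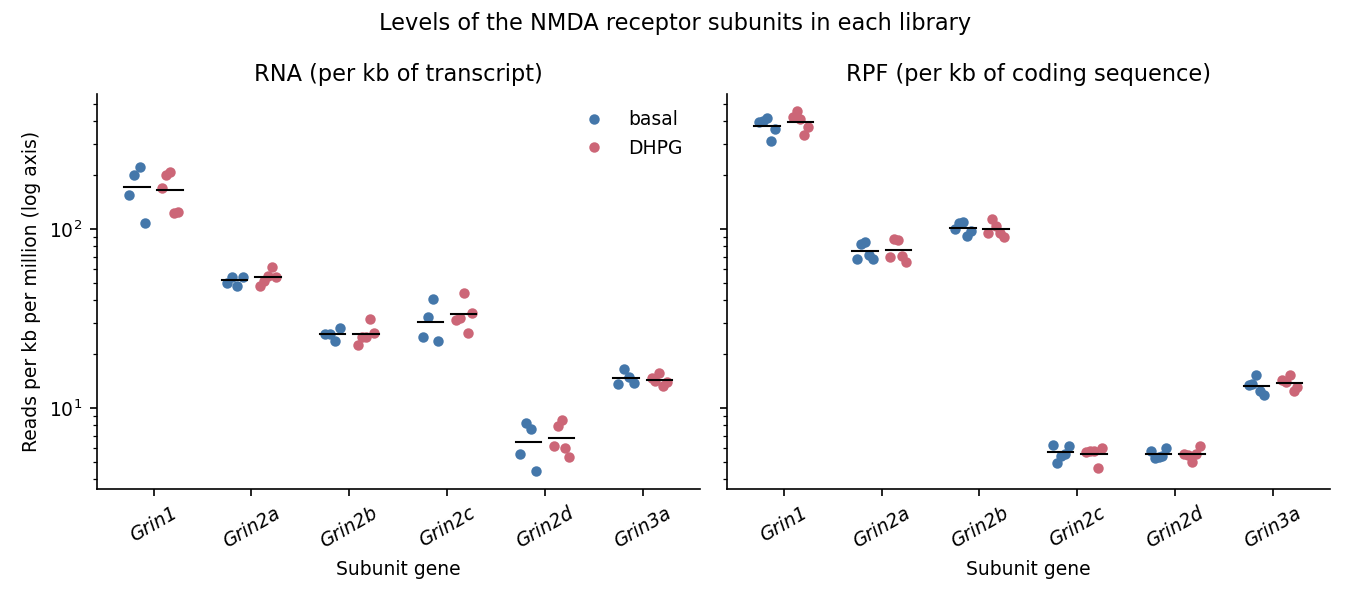
Level of each subunit gene in every RNA library (left, RPKM per kb of transcript) and RPF library (right, RPKM per kb of coding sequence) on a log axis, with basal libraries in blue, DHPG libraries in red and a black line at each group mean. Grin1 sits highest in both panels, Grin2c falls from among the middle genes in RNA to the level of Grin2d in RPF, and basal and DHPG libraries overlap for every gene.

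The number of RPFs per unit of RNA differed widely between the subunits, and Grin2c was far below the rest. The ratio of RPF to RNA, each per length, was 0.249, 0.153, 0.132 and 0.234 for Grin2c in basal replicates 1 to 4 (0.192 ± 0.058, SD, n = 4). Of 12228 genes with both values, 76 (0.622%) had a lower ratio, and the median gene was at 1.82. This placed Grin2c, a GluN2 subunit gene with more RNA per length than most genes, among those with the fewest RPFs for their RNA. The rank used whole-transcript RNA lengths, which raise the ratio of genes with long untranslated regions. It was not computed with other lengths.

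Grin2b had the highest ratio of the family, at 3.89, 4.20, 4.60 and 3.28 (3.99 ± 0.557), which was above 77.0% of all genes. Grin1 followed at 2.54, 2.01, 1.88 and 2.86 (2.32 ± 0.458), and Grin2a at 1.36, 1.51, 1.75 and 1.32 (1.49 ± 0.195). Every Grin2b value lay above every Grin1 value, and every Grin1 value above every Grin2a value. Grin3a was at 0.989, 0.822, 1.02 and 0.909 (0.935 ± 0.0885) and Grin2d at 1.04, 0.632, 0.690 and 1.21 (0.892 ± 0.277), which overlapped. In 14 of the 15 pairs of genes the same gene had the higher ratio in all 4 replicates, the exception being Grin2d and Grin3a with 2 of 4. With 4 replicates the exact two-sided sign-flip permutation test cannot go below p = 0.125, which these 14 pairs reached (adjusted p = 0.134 over the 15 pairs), so no pair could pass 0.05.

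Grin2c remained lowest under each length tried, with basal means from 0.146 (RNA per kilobase of coding sequence) to 0.192, and the other genes changed places. Per kilobase of coding sequence in RNA, Grin1 led at 1.56 ± 0.308, followed by Grin2b at 0.738 ± 0.103, Grin2d at 0.653 ± 0.203, Grin2a at 0.447 ± 0.0587 and Grin3a at 0.425 ± 0.0403. With bases shared with other genes left out of both lengths and the counts left whole, Grin2a was at 2.52 ± 0.331. This value assumes that no counted read came from the shared bases. After DHPG the ratio of Grin2c was 0.184, 0.180, 0.131, 0.177 and 0.174 in replicates 1 to 5 (0.170 ± 0.0216, SD, n = 5), again the lowest of the family in every replicate.

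The RPF to RNA ratio moved with base composition across all genes, and Grin2c is rich in GC. Over 12228 genes, the Spearman correlation of transcript GC content with the basal ratio was -0.44, a description across genes that share libraries and are not independent replicates. Among the 573 genes within 2 percentage points of the GC content of Grin2c, 8 (1.40%) had a lower whole-transcript ratio than Grin2c. Grin2d, at a like GC content, was near the middle of the genes within 2 points of its own (57.1% below it), and Grin1 was above 85.5% of such genes.

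Among the other glutamate-gated channels, Grik5, a kainate receptor subunit, had a lower ratio still at 0.125 ± 0.0407 (SD, n = 4), and the remaining 10 ran from 0.461 ± 0.0463 for Grik1 to 9.19 ± 3.46 for Gria2, an AMPA receptor subunit. No gene of the 4 lists of NMDA receptor partners (scaffolds, kinases and phosphatases, trafficking and signalling partners, co-agonist and glutamate supply) was below Grin2c. The same held for the 10 astrocyte markers, whose lowest was Fgfr3 at 0.672. Whether astrocytes or neurons held the Grin2c RNA cannot be read from whole slices.

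The start codons of the 6 genes are shown because they are where a ribosome enters the coding sequence. Each line gives 27 bases around the annotated start, 5′ to 3′ on the coding (minus) strand, from mm10 with GENCODE gene models, with the start codon in capitals.
Grin1 (chr2:25318872-25318898): tgcccgaggctcATGagcaccatgcac
Grin2a (chr16:9992519-9992545): taagtggcgaccATGggcagactgggc
Grin2b (chr6:136044287-136044313): gacgagctgaagATGaagcccagcgca
Grin2c (chr11:115261118-115261144): cctccagtggacATGggtggagccctg
Grin2d (chr7:45866553-45866579): ggcccgcaggcgATGcgcggcgccggt
Grin3a (chr4:49845067-49845093): cgggtctcagtaATGaggagactgagt

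A purine 3 bases before the start codon and a G directly after it are the best-known features of a favoured start in mammals. Over 18588 annotated transcripts, 84.7% had the purine, 49.96% the G and 41.8% both. Grin2a and Grin2c have both, Grin2b, Grin2d and Grin3a have the purine without the G, and Grin1 has neither.

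**Figure D2:**
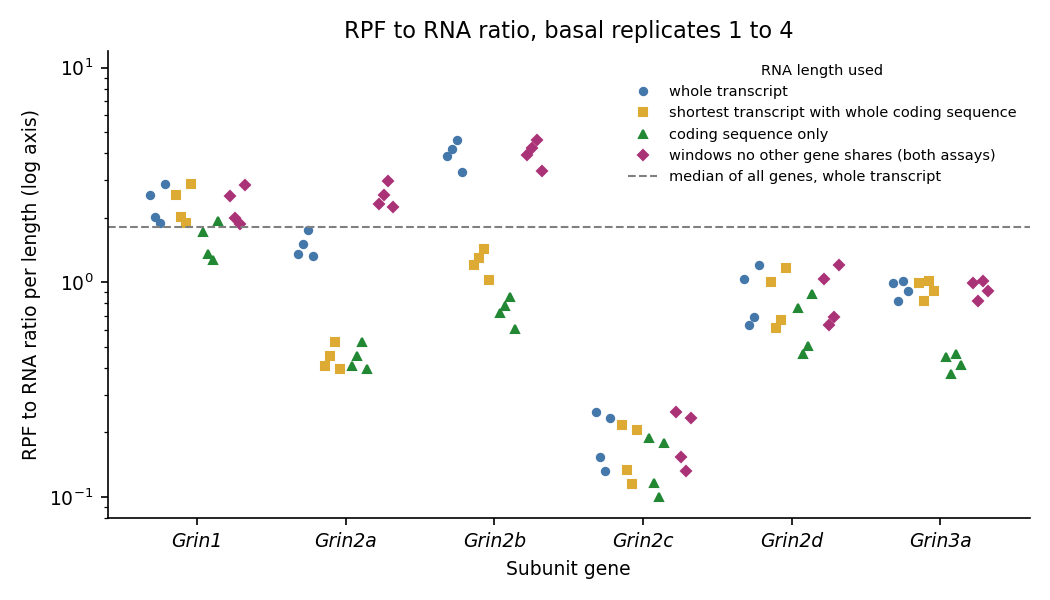
RPF to RNA ratio per length of each subunit in basal replicates 1 to 4, on a log axis, with the RNA length taken as the whole transcript (blue circles), the shortest transcript with the whole coding sequence (yellow squares) or the coding sequence (green triangles), and with both lengths limited to bases in windows no other gene shares (purple diamonds). The dashed line is the median of all genes at 1.82, and Grin2c lies between 0.100 and 0.249 under every length.

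RNA levels of the GC-rich subunits varied between replicates far more than they differed between treatments. Relative to the mean of the gene, Grin1 RNA was at 0.45 log2 CPM (CPM, the count scaled to library size) in basal replicate 3 and -0.59 in basal replicate 4, and its DHPG partners were at 0.35 and -0.40. Grin2c and Grin2d also had their highest replicate mean in replicate 3 and their lowest in replicate 4. The range of the replicate means was 0.89, 0.76 and 0.65 log2 for Grin1, Grin2c and Grin2d, against 0.23 for Grin2a, 0.30 for Grin2b and 0.18 for Grin3a. Grin2a and Grin2b were highest in replicate 4, where the GC-rich subunits were lowest.

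The same libraries stood apart by GC content over all genes. The Spearman correlation across 12475 genes of GC content with the deviation of a library from the mean was 0.65 and 0.62 in basal and DHPG replicate 3, and -0.60 and -0.43 in basal and DHPG replicate 4. Marker levels also differed between the basal RNA libraries. Summed over each list, they ran from 2796 to 5843 CPM for 8 oligodendrocyte markers, from 3782 to 6238 CPM for 10 excitatory neuron markers and from 5514 to 5951 CPM for 10 astrocyte markers. The part of GC content or of these markers in the spread of the subunits was not tested. In RPF the ranges of the replicate means were closer together, from 0.24 log2 for Grin2d to 0.41 for Grin1.

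**Figure D3:**
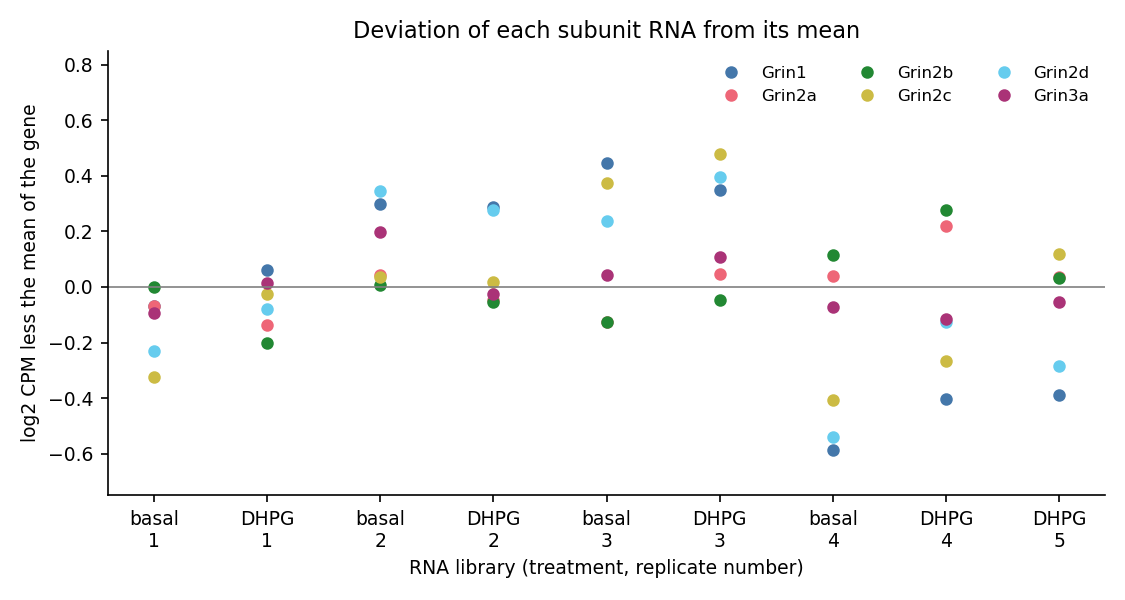
Deviation of the log2 CPM of each subunit RNA from the mean of that gene over the 9 RNA libraries, ordered by replicate number with basal before DHPG. Grin1, Grin2c and Grin2d lie above 0.2 in both libraries of replicate 3 and below -0.1 in both libraries of replicate 4, and Grin2a and Grin2b show no such spread.

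DHPG for 5 min did not give a call for any of the 6 subunits, in RNA, in RPF or in their ratio (translation efficiency, TE). In RNA, 0 of 6 passed an adjusted p of 0.01 in the quasi-likelihood test of edgeR with the replicate as a block, where 0.00773% of all 12935 genes did, and 0 of 6 had an unadjusted p under 0.05 (8.02% of all genes). In RPF, 0 of 6 passed an adjusted p of 0.05, where 0.22% of all 13208 genes did, and 1 of 6 had an unadjusted p under 0.05 (10.8% of all genes). In TE, 0 of 6 passed an adjusted p of 0.05 (0% of 12691 genes) and 0 of 6 an unadjusted p of 0.05 (6.78% of all genes). DESeq2 with the same block called 0 of 6 in RNA and 0 of the 3 subunits to which it gave an adjusted p in RPF (Grin1, Grin2a and Grin2b). For every subunit the basal and DHPG libraries overlapped in both assays, where 0.51% of all genes in RNA and 0.394% in RPF did not overlap. No subunit was higher in every RNA pair (8.67% of all genes were) or lower in every one (6.97%), and none was higher (5.16%) or lower (4.72%) in every RPF pair.

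The obligatory subunit came closest in RPF. Grin1 RPF was at 396, 404, 419, 311 and 365 RPKM in basal replicates 1 to 5 and at 423, 455, 414, 335 and 371 in the DHPG replicates, so it was higher after DHPG in 4 of 5 pairs and lower in replicate 3. The fitted change was 5.29%, with a 95% interval from 0.991% to 9.77% (log2 fold change 0.07, standard error 0.03, unadjusted p = 0.0166 and adjusted p = 0.349 in edgeR). That interval did not hold in every fit: in edgeR the log2 change was 0.0423 (unadjusted p = 0.123) with the trends of each library with GC content and length removed, 0.0487 (unadjusted p = 0.150) without replicate 2 and 0.0750 (unadjusted p = 0.431) without the block. Other fits had a smaller unadjusted p. Without replicate 3 the log2 change was 0.0984 (unadjusted p = 0.00273, adjusted p = 0.140 in edgeR). After ComBat it was 0.0489 (unadjusted p = 0.00823, adjusted p = 0.122 in DESeq2). Grin1 RNA after DHPG was at 170.4, 199.5, 208, 124 and 125 RPKM, higher in 2 of 4 pairs, and the fitted change of 3.57% had an interval from -5.73% to 13.8%. The TE change of Grin1 was 0.02 log2 (adjusted p = 0.964 in edgeR).

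The main glutamate-binding subunits of the forebrain, Grin2a and Grin2b, had intervals on both sides of 0 in RPF and RNA. Grin2a RPF after DHPG was at 69.7, 87.7, 86.9, 70.6 and 65.6 RPKM, and the fitted change was 1.29% with a 95% interval from -2.94% to 5.71%. Grin2b RPF was at 95.6, 115, 104, 94.7 and 90.2, and the fitted change was -1.72% with an interval from -5.90% to 2.65%. Pairs pointed both ways, with 3 of 5 higher for Grin2a and 2 of 5 for Grin2b. In RNA, Grin2a was at 48.0, 51.0, 54.4, 61.5 and 54.0 after DHPG and Grin2b at 22.5, 24.8, 25.0, 31.2 and 26.4, each higher in 2 of 4 pairs, with intervals from -5.93% to 13.9% and from -9.60% to 9.77%.

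Grin2c and Grin2d had the largest fitted RNA changes of the family in the edgeR fit with the replicate block, and neither passed the test. Grin2c RNA was at 30.9, 31.8, 43.8, 26.1 and 34.1 RPKM after DHPG, higher in 3 of 4 pairs. The fitted change was 9.63% with an interval from -1.02% to 21.4% (unadjusted p = 0.0760, adjusted p = 0.658 in edgeR). Grin2d RNA was at 6.15, 7.89, 8.57, 5.95 and 5.33, also higher in 3 of 4 pairs, with a fitted change of 12.0% and an interval from -1.83% to 27.8% (unadjusted p = 0.0891, adjusted p = 0.668 in edgeR). Both values moved with the processing. With the trends of each library with GC content and length removed, the log2 change was 0.0344 for Grin2c in place of 0.13 and 0.0480 for Grin2d in place of 0.16, and that of Grin3a, at -0.0563, was then larger in size than either. Without replicate 1 the log2 change of Grin2c was 0.0696, and without replicate 4 that of Grin2d was 0.0825.

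Their fitted RPF changes were smaller than those in RNA, but the TE intervals of both genes included 0, so the assays were not shown to differ. Grin2c RPF was at 5.69, 5.74, 5.76, 4.63 and 5.95 RPKM after DHPG, higher in 2 of 5 pairs, and Grin2d RPF at 5.55, 5.47, 4.96, 5.56 and 6.15, higher in 3 of 5. The fitted changes were 0.949% and 0.182%, with intervals from -7.98% to 10.7% and from -7.98% to 9.07%. The TE change was -0.12 log2 for Grin2c (95% interval from -0.31 to 0.06, adjusted p = 0.831 in edgeR) and -0.16 for Grin2d (from -0.37 to 0.05, adjusted p = 0.801 in edgeR).

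Grin3a RNA was at 14.6, 14.2, 15.6, 13.4 and 14.0 RPKM after DHPG, and 2 of 4 pairs were higher. Grin3a RPF was at 14.3, 14.0, 15.3, 12.5 and 13.2, higher in 4 of 5 pairs, with the difference in replicate 4 near 0. The fitted RPF change was 3.38% with an interval from -3.06% to 10.2%, and the TE change was 0.07 log2 (adjusted p = 0.901 in edgeR). The other glycine-binding subunit gene, Grin3b, was in both tables but near the detection limit, with 0 to 10 counts in an RNA library and 0 to 4 in an RPF library, and did not pass the filter.

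**Figure D4:**
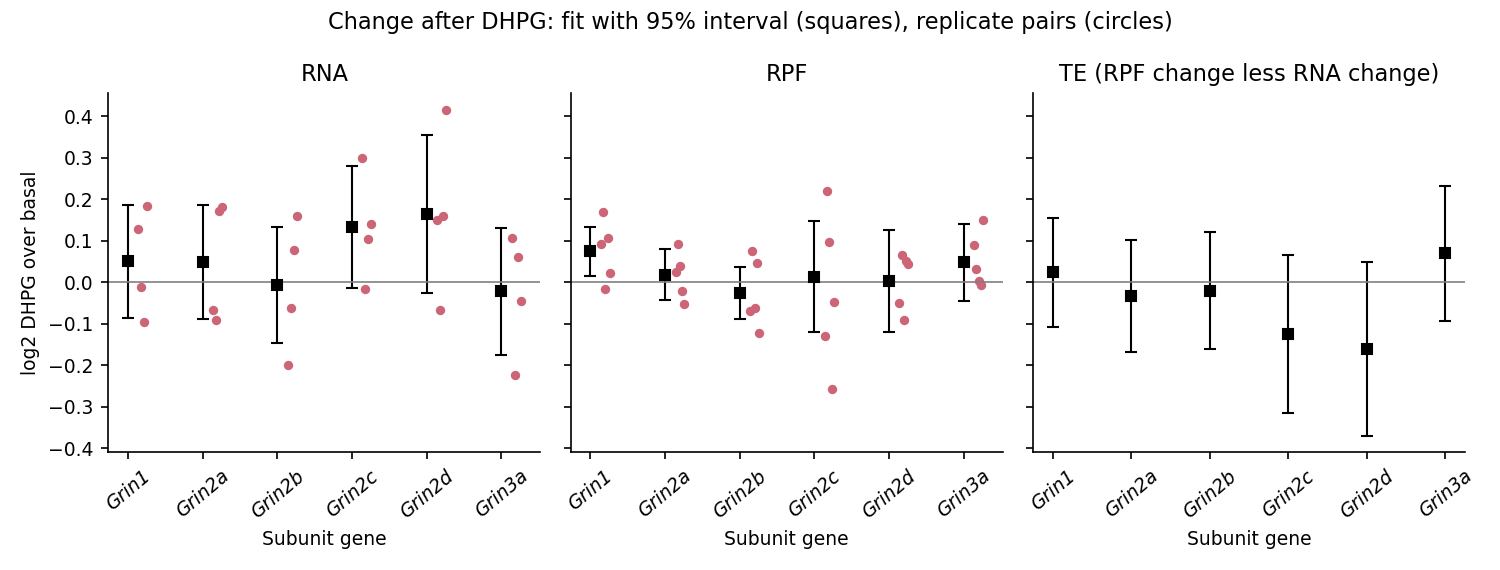
Log2 fold change of each subunit after DHPG in RNA, RPF and TE, with black squares for the fitted value and its 95% interval and red circles for the 4 RNA or 5 RPF replicate pairs. All intervals include 0 except that of Grin1 in RPF, which runs from 0.01 to 0.13 and did not pass the test after adjustment over all genes.

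Ratios between subunits, taken within a library, remove differences in library size. The ratio of Grin2b to Grin2a per length is a common summary of receptor maturation. In RPF it was 1.47, 1.32, 1.29, 1.28 and 1.44 in basal replicates 1 to 5 and 1.37, 1.31, 1.20045, 1.34 and 1.37 after DHPG. It was lower after DHPG in all pairs but replicate 4, by a mean of -0.04 log2 (exact two-sided sign-flip permutation p = 0.188, the smallest possible being 0.0625). In RNA it was 0.513, 0.477, 0.490 and 0.516 at basal and 0.468, 0.487, 0.459, 0.508 and 0.488 after DHPG, a mean difference of -0.06 log2 over 4 pairs (exact permutation p = 0.375, the smallest possible being 0.125). The groups overlapped in both assays. Per base that no other gene shares, with the counts left whole, the basal ratio in RPF was 0.691 ± 0.0446 in place of 1.36 ± 0.0878. The side of 1 on which it lies thus depended on the treatment of the pseudogene bases. A change of length scales every library alike, so it cannot alter the difference after DHPG.

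Grin1 against the sum of the other 5 genes gives the balance of the obligatory subunit. In RPF it was 2.04, 1.88, 1.91, 1.66 and 1.92 at basal and 2.21, 1.999, 1.90, 1.78 and 2.05 after DHPG, higher in 4 of 5 pairs with replicate 3 near 0 (mean difference 0.08 log2, exact permutation p = 0.125). In RNA the values at basal were 1.30, 1.46, 1.64 and 0.876, and the spread between replicates was wider than any difference between treatments (exact permutation p = 1). Grin2c and Grin2d together made up 0.481 ± 0.145 of the level of Grin2a and Grin2b in basal RNA (SD, n = 4) and 0.0638 ± 0.00909 in basal RPF (SD, n = 5). The RNA value depended on length, and was 0.164 ± 0.0495 per base of the shortest transcripts with the whole coding sequence.

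**Figure D5:**
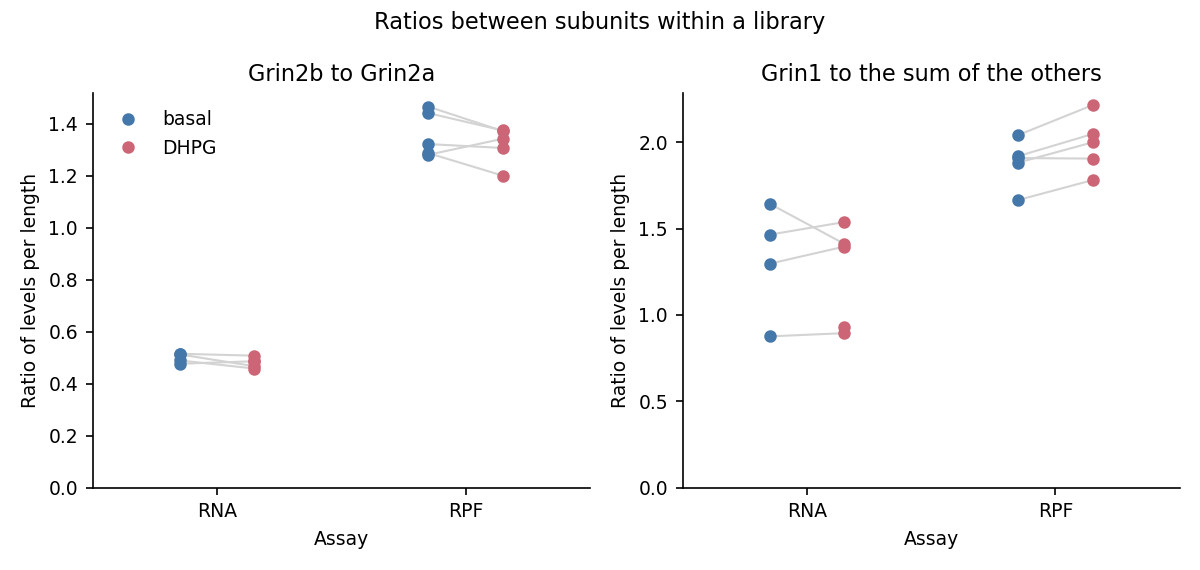
Ratio of Grin2b to Grin2a (left) and of Grin1 to the sum of the other 5 subunits (right), per length, in each RNA and RPF library, with grey lines joining the basal (blue) and DHPG (red) libraries of a replicate. The Grin2b to Grin2a ratio is between 0.459 and 0.516 in RNA and between 1.20045 and 1.47 in RPF, and the treatments overlap in all 4 comparisons.

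Genes that act with the receptor were read beside the subunits. Of 89 tested genes in 5 lists, 0 passed the test in RNA, RPF or TE by edgeR, and an unadjusted p under 0.05 was found for 13 in RNA (14.6%, beside 8.02% of all genes), 12 in RPF (13.5%, beside 10.8%) and 8 in TE (8.99%, beside 6.78%). The list of 22 scaffolds, which hold the receptor in the postsynaptic density, had 18 genes with a higher fitted RNA value after DHPG (81.8%, beside 52.1% of all genes), a median of 0.08 log2 beside 0.01 over all genes, and 7 with an unadjusted p under 0.05 (31.8%, beside 8.02%). Shank3, a master scaffold, had 292 ± 67.4 CPM of RNA at basal and 327 ± 74.7 after DHPG (log2 fold change 0.27, adjusted p = 0.323 in edgeR), and Dlgap4 was at 0.22 log2 (adjusted p = 0.538 in edgeR). In RPF the scaffold median was 0.02, and in TE 19 of 22 scaffolds had a lower fitted value, with a median of -0.09, where 49.7% of all genes had a higher one. Markers of excitatory neurons and oligodendrocytes, at 9 of 10 and 8 of 8 genes, also had higher fitted RNA values (medians 0.09 and 0.16 log2). So did 10 of 11 thalamus markers (median 0.46) and 8 of 10 astrocyte markers (median 0.07). Of interneuron and endothelial markers, 2 of 10 and 2 of 7 were higher. For CA3, microglia and cerebellar granule cells, 5 of 8, 4 of 8 and 2 of 4 were. The part of these cell types and tissues in the scaffold values was not tested, nor was that of GC content. Dlg3, which encodes SAP102 and binds GluN2 tails, had 246 ± 14.8 CPM of RPF at basal and 228 ± 23.7 after DHPG (log2 fold change -0.11, adjusted p = 0.158 in edgeR).

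Of 25 kinases, phosphatases and their anchors, 11 had a higher RNA value and 8 a higher RPF value, where 52.1% of all genes did in RNA and 51.4% in RPF. Camk2a, which binds GluN2B, was at 0.18 log2 in RNA (adjusted p = 0.547 in edgeR), and Akap5, an anchor of kinases and calcineurin at the receptor, had one of -0.12 in RPF (adjusted p = 0.265 in edgeR) with lower values in all 5 pairs. The 20 trafficking and signalling partners had medians of -0.00420 in RNA and -0.0129 in RPF. Of 11 tested genes for co-agonist and glutamate supply, 8 had a higher RPF value (72.7%, beside 51.4% of all genes). Slc6a9, the glial glycine transporter, had a log2 fold change of 0.21 in RNA and 0.12 in RPF, and Slc1a1, a neuronal glutamate transporter, had 0.09 in RPF with higher values in all 5 pairs (adjusted p = 0.261 in edgeR). The 11 other glutamate-gated channels had medians of 0.03 in RNA and 0.04 in RPF, with Grik5 at 0.16 in RNA (adjusted p = 0.573 in edgeR) and Gria3 at 0.06 in RPF (adjusted p = 0.462 in edgeR).

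The likeness of profiles over the 10 RPF libraries is given as a description, since libraries of the same replicate number vary together and are not independent. The genes with the highest Pearson correlation of log2 CPM were Pigs (0.985) and Astn2 (0.984) for Grin1, 4932438A13Rik (0.982) and Slc35a5 (0.979) for Grin2a, and Senp5 (0.978) and Galnt13 (0.963) for Grin2b. For Grin2c they were S100a4 (0.913) and Asrgl1 (0.906), for Grin2d Atn1 (0.942) and Slc9a3r2 (0.940), and for Grin3a Atp1b3 (0.978) and Sept10 (0.963).

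Markers of cell types and of neighbouring tissue were read in the same fits. Defining markers of hippocampal excitatory neurons, interneurons and astrocytes were detected in both assays. Only Gabra6 and Cbln3 of the 6 cerebellar granule cell markers were under 1 CPM on average. Summed over the 6, levels were 25.5 to 29.3 CPM in basal RNA and 55.7 to 67.1 CPM in basal RPF. Of the thalamus markers, 6 of 13 tested rose in RPF, where 0.22% of all genes passed, and 1 of 11 in RNA, where 0.00773% did, with summed levels of 313 to 397 CPM at basal and 332 to 470 after DHPG in RPF. In RPF 1 of 8 oligodendrocyte and 1 of 10 interneuron markers also rose, and 0 of the astrocyte, microglia, endothelial, CA3 and excitatory neuron markers passed. In RNA no marker outside the thalamus list passed. The part of these differences in the values of the subunits was not tested.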

How the data were processed

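The authors trimmed reads, removed those from rRNA and tRNA, mapped the rest to mm10 with TopHat2, kept uniquely mapped reads without duplicates, and quantified genes with RSEM. The values they deposited are expected counts, already rounded to integers, and neither normalized nor batch-corrected. RNA was counted on whole transcripts and RPFs of 26 to 34 nt on coding sequences without the first and last 30 bases. The tables hold 12 further columns that match no sample and were not used. The study's own wild-type comparison of DHPG with basal rested on more replicates than the 19 libraries used here. The strand setting of the count is not given in the sources used here.

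The members and the lists were chosen with earlier results of these data known. DHPG was compared with basal in edgeR 4.0.16 (R 4.3.3) by the quasi-likelihood F test with TMM scaling, filterByExpr, the replicate number as a block and Benjamini-Hochberg adjustment over all genes, at 0.01 for RNA and 0.05 for RPF, the study's thresholds. All adjusted p values are from edgeR unless another tool is named. TE was the interaction of assay and treatment over 19 libraries (0.05), since anota2seq was not used here. The numbers pair the libraries: deviations from the treatment mean correlated at 0.31 to 0.74 between same-numbered RNA libraries and 0.26 to 0.52 between RPF libraries. Nothing says whether the pools of 6 mice shared animals across treatments, so p-values measure the spread between these libraries.

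Levels per length used, for each of the 96.0% of genes matched, the GENCODE transcript with the longest coding sequence, then the longest transcript. The authors counted RPFs on RefSeq coding sequences, and the transcript lengths behind their RNA counts are not known here. Among the members, the transcripts used for Grin1 (4276 bases) and Grin2a (14634 bases) have no RefSeq link in GENCODE. Transcripts with such a link have 3809 to 4238 bases for Grin1 and 4395 for Grin2a. By that length the basal RPF to RNA ratio of Grin2a was 0.447 ± 0.0587, in place of 1.49 ± 0.195. Log2 CPM used a prior count of 2. Alternatives were DESeq2 size factors, no filter, at least 10 counts in every library, no block, loess removal of GC and length trends (span 0.5), DESeq2 1.42.0, ComBat (sva 3.50.0) followed by DESeq2, limma 3.58.1 for TE, exchanged thresholds, each replicate left out and other lengths. The steps were tested on simulated data. From each pathway list the genes named were those called and up to 3 with the smallest p in RNA and in RPF, of which the text gives the leading ones. The 2 genes most like each member in RPF were also named.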

Additional observations from a re-analysis of the deposited data

Results flagged for a closer look

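Grin2c RPF after DHPG had 1 replicate apart from the others. Replicate 4 was at 16.96 CPM, and the other 4 DHPG libraries ran from 20.8 to 21.8. Of the 24 groups of 4 or 5 libraries screened for such a gap, 1 was picked out, and chance picks about 1 in 20 groups, or 1.2 here. The value rests on 180 counts, and without replicate 4 the log2 fold change of Grin2c in RPF, 0.01 over all replicates, was 0.06.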

How the results depend on the processing

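None of the 6 subunits was called in RNA, RPF or TE in any of the alternatives run, and their smallest adjusted p over those alternatives was 0.122 (Grin1 in RPF). DESeq2 gave no adjusted p for Grin2c, Grin2d and Grin3a in RPF, with or without ComBat, nor for Grin2d in RNA after ComBat. Without the block, the log2 change was -0.0581 for Grin1 RNA, 0.00765 for Grin2b RNA and -0.0114 for Grin2c RPF, each opposite in sign to the value with it, and the count of called subunits remained 0 without the replicate block. With the replicate block and the GC and length trends removed, the change was -0.0251 for Grin1 RNA, -0.0229 for Grin2c RPF, -0.0482 for Grin2d RPF, 0.00712 for Grin2a TE and 0.0167 for Grin2b TE, again opposite in sign. DESeq2 with the block gave -0.00660 for Grin2c RPF, and limma gave 0.00382 for Grin2b TE. When 1 replicate at a time was left out, the sign was not kept for Grin2b RNA (-0.0645 to 0.0524), Grin3a RNA (-0.0734 to 0.0413), Grin2a RPF (-0.00298 to 0.0357), Grin2c RPF (-0.0503 to 0.0624), Grin2d RPF (-0.0172 to 0.0377), Grin1 TE (-0.0208 to 0.0629), Grin2a TE (-0.0991 to 0.0239) and Grin2b TE (-0.0703 to 0.0216). The cause of these sign changes was not tested. The ratio of Grin2b to Grin2a kept its sign when any replicate was left out, from -0.0831 to -0.0289 log2 in RNA and from -0.0704 to -0.0282 in RPF, and the unpaired exact permutation test without the block gave p = 0.238 and 0.437. The share of Grin1 in the summed level was 35.0% in RNA with the shortest transcripts and 58.0% in RPF with shared windows left out, both chosen after seeing the data. The lengths of Grin2a and Grin2b are much shorter in the former, and that of Grin2a in the latter. The basal RPF to RNA ratio of Grin2c was 0.173 to 0.212 when 1 replicate was left out. Depth limits Grin2c and Grin2d most, with as few as 117 and 122 RPF counts in a library.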
